A study of Mus musculus with 2 samples.

Results

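The lymphocytes described here carried RNA of Cd7 and Itgae and lacked RNA of Cd8. Cd7 encodes an immunoglobulin-family surface protein found on natural killer (NK) cells, innate lymphoid cells and many T cells. Itgae encodes CD103, the integrin chain that binds E-cadherin on epithelium. Among barcodes with at least 200 genes and at most 20% mitochondrial unique molecular identifiers (UMIs), a cell was a member with at least 2 Cd7 UMIs and at least 1 Itgae UMI. It also had to have under 10 UMIs of Gzmc and Gzmf together, no UMI of Cd8a, Cd8b1 or Foxp3, at most 1 Cd79a UMI, and under 0.2% of its UMIs from the C1q genes and under 0.2% from S100a8 and S100a9. The rule found 201 cells among 13977, of which 93 were in the tumour library and 108 in the normal adjacent library. The cells were thus chosen by their Cd7, Itgae and other UMIs named in the rule, which are given only as a description.

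Lymphocytes that live in epithelium include conventional T cells, unconventional T cells that carry NK receptors, and group 1 innate lymphoid cells, which lack a T cell receptor. The Cd3d, Cd3e and Cd3g products carry the signal of a T cell receptor, whose constant regions come from Trac, Trbc1 and Trbc2 (alpha beta) or from Trdc and the gamma genes (gamma delta). NK cells of the circulating kind depend on the transcription factor Eomes and kill through perforin (Prf1), whereas tissue-resident group 1 cells are known for CD49a (Itga1), CD103 and CXCR6. Xcl1 encodes a chemokine that draws cross-presenting dendritic cells, and Klrd1 encodes CD94, the partner of the NKG2 receptors.

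The study made 1 droplet single-cell RNA library from mouse prostate tumour and 1 from normal tissue next to the tumour. Tissue was broken up with collagenase I and trypsin, per the labels' protocols, and sorted CD45+ and CD45- cells shared 1 channel per tissue. The labels used here name no strain, age, tumour model or number of animals. With 1 library per tissue there was no replicate and no test between tissues, and intervals given in parentheses are exact 95% intervals that cover counting error only.

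The tumour library held 8237 barcodes and 92188538 UMIs, and the normal adjacent library held 6553 barcodes and 77855775 UMIs. The filters kept 7768 cells in tumour and 6209 in normal adjacent tissue. The members' median depth was 7431 UMIs in tumour and 6897.5 in normal adjacent tissue, running from 1310 to 34939 in tumour and from 1653 to 64900 in normal adjacent tissue. The libraries shared 18 barcodes, of which 1 was a member in tumour and none in normal adjacent tissue. At least 3 UMIs of B cell, macrophage, neutrophil, epithelial or fibroblast markers were present in 81.7% of members in tumour and 79.6% in normal adjacent tissue, so such UMIs were widespread. Markers of those lineages and of dendritic cells or seminal vesicle genes, called foreign UMIs below, made up at least 1% of the UMIs in 6 members in tumour and 12 in normal adjacent tissue. These cells were deep, with medians of 26544.5 UMIs in tumour and 20564.5 in normal adjacent tissue, and 6 of them in tumour and 11 in normal adjacent tissue carried the excess in genes of the dendritic cell list. That list holds Cd74, H2-Aa and H2-Ab1 and does not single out dendritic cells. Cells gated as B cells had medians of 154 UMIs of it in tumour and 186 in normal adjacent tissue. No doublet caller was run, and values without these cells, a limit chosen after the values were seen, stand beside the results they move.

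Members made up 4.48% of T, NK and innate lymphocytes in tumour (93 of 2078, 3.63 to 5.45%) and 4.97% in normal adjacent tissue (108 of 2171, 4.10 to 5.97%). The difference of tumour minus normal adjacent tissue was -0.499 percentage points (Newcombe interval -1.78 to 0.787), so a difference in share was not detectable at this depth. Of all cells kept, members were 1.20% in tumour (0.967 to 1.46%) and 1.74% in normal adjacent tissue (1.43 to 2.10%). These shares of all cells also depend on how many CD45- cells were loaded, which is not given in the sources used here.

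Cells lay close to the thresholds on either side. Just inside, 6 members in tumour and 10 in normal adjacent tissue had exactly 2 Cd7 UMIs, and just outside, 45 cells in tumour and 27 in normal adjacent tissue met every other condition with 1 Cd7 UMI. Xcl1 was detected in 50.0% of the cells just inside in each library, and in 26.7% of those just outside in tumour and 33.3% in normal adjacent tissue. For Itgae, 27 members in tumour and 39 in normal adjacent tissue had exactly 1 UMI, while 167 cells in tumour and 224 in normal adjacent tissue met every other condition with none. Cd3g was detected in 92.6% of the cells just inside this limit in tumour and 64.1% in normal adjacent tissue. Among the cells just outside it the shares were 32.3% in tumour and 35.3% in normal adjacent tissue.

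The given markers were met beyond the Cd7 and Itgae that the rule used. Xcl1 was detected in 94.6% of members in tumour (87.9 to 98.2%) and 92.6% in normal adjacent tissue (85.9 to 96.7%), at 3121 UMIs per 1000000 UMIs (CPM) summed over members in tumour and 2417 CPM in normal adjacent tissue. Among the B cells, which should not make it and are used as background throughout, Xcl1 was seen in 9.94% in tumour and 14.9% in normal adjacent tissue. The median depth of those B cells was 5283 UMIs in tumour and 4743.5 in normal adjacent tissue. Klrd1 was detected in 83.9% of members in tumour (74.8 to 90.7%) and 88.9% in normal adjacent tissue (81.4 to 94.1%), against 7.18% of B cells in tumour and 7.85% in normal adjacent tissue. Per cell, Xcl1 ran from 0 over a median of 18 to 261 UMIs in tumour, and from 0 over a median of 13 to 137 in normal adjacent tissue.

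Most members had transcripts of the T cell receptor complex, so the label innate-like holds for most of them only where it takes in unconventional T cells, and they are called Cd7 Itgae lymphocytes below. At least 1 UMI of Cd3d, Cd3e or Cd3g was present in 79 of 93 members in tumour (84.9%, 76.0 to 91.5%) and in 89 of 108 in normal adjacent tissue (82.4%, 73.9 to 89.1%). The sum of these 3 genes ran from 0 over a median of 28 to 78 UMIs per cell in tumour, and from 0 over a median of 20.5 to 98 in normal adjacent tissue. Single cells lay either at 0 or mostly far above it. No Cd3 UMI was seen in 14 members in tumour and 19 in normal adjacent tissue, 1 or 2 UMIs in 1 member in tumour and 13 in normal adjacent tissue, and at least 3 in 78 in tumour and 76 in normal adjacent tissue.

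Trac was detected in 64.5% of members in tumour and 47.2% in normal adjacent tissue, against 6.63% of B cells in tumour and 9.09% in normal adjacent tissue. Trbc2 was detected in 87.1% of members in tumour and 78.7% in normal adjacent tissue, and Trbc1 in 65.6% in tumour and 65.7% in normal adjacent tissue. Trbc1 and Trbc2 are nearly identical in their coding part, so how reads were split between them is uncertain, and Trbc1 was also found in 72.1% of the cells gated as NK in tumour and 72.8% in normal adjacent tissue, which had no Cd3 UMI. The delta chain constant gene Trdc had a UMI in 18.3% of members in tumour (11.0 to 27.6%) and 23.1% in normal adjacent tissue (15.6 to 32.2%), against 3.31% of B cells in tumour and 2.48% in normal adjacent tissue. The coreceptor gene Cd4 had a UMI in 1 member in tumour and 4 in normal adjacent tissue, and Cd8 was absent by the rule.

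NK features were present beside the receptor genes. The adaptor genes Fcer1g and Tyrobp, whose products pair with activating NK receptors, were detected in nearly all members. Fcer1g had a UMI in 96.8% of members in tumour and 96.3% in normal adjacent tissue, and Tyrobp in 95.7% in tumour and 91.7% in normal adjacent tissue. The Fcer1g level was 3065 CPM in members and 179 CPM in B cells in tumour, and 2929 CPM in members and 157 CPM in B cells in normal adjacent tissue, although 34.8% of B cells in tumour and 28.1% in normal adjacent tissue had a UMI. Ncr1, which encodes the receptor NKp46, was detected in 30.1% of members in tumour (21.0 to 40.5%) and 35.2% in normal adjacent tissue (26.2 to 45.0%), against 1.10% of B cells in tumour and 1.24% in normal adjacent tissue. Klrb1c, which encodes NK1.1, was detected in 50.5% of members in tumour and 43.5% in normal adjacent tissue. Tbx21, the gene of T-bet, was detected in 43.0% of members in tumour and 38.0% in normal adjacent tissue.

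Eomes was close to background. It had a UMI in 2 of 93 members in tumour (2.15%, 0.262 to 7.55%) and in 6 of 108 in normal adjacent tissue (5.56%, 2.07 to 11.7%), against 3.31% of B cells in tumour and 1.65% in normal adjacent tissue. The level was 3.44 CPM in members and 699 CPM in the NK gate in tumour, and 6.89 CPM in members and 546 CPM in the NK gate in normal adjacent tissue, but that gate required an Eomes UMI. Prf1 had a UMI in 19.4% of members in tumour and 26.9% in normal adjacent tissue, at 26.4 CPM in tumour and 41.3 CPM in normal adjacent tissue. The granzyme gene Gzmb was detected in 86.0% of members in tumour and 87.0% in normal adjacent tissue, and Gzma in 19.4% in tumour and 34.3% in normal adjacent tissue. Itga1 was detected in 63.4% of members in tumour and 71.3% in normal adjacent tissue, and Cxcr6 in 76.3% in tumour and 72.2% in normal adjacent tissue. Among B cells, Gzmb had a UMI in 9.39% in tumour and 16.5% in normal adjacent tissue, and Gzma in 3.31% in tumour and 13.2% in normal adjacent tissue. Prf1, Itga1 and Cxcr6 each had a UMI in at most 2.76% of B cells in tumour and 4.55% in normal adjacent tissue.

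**Figure D1:**
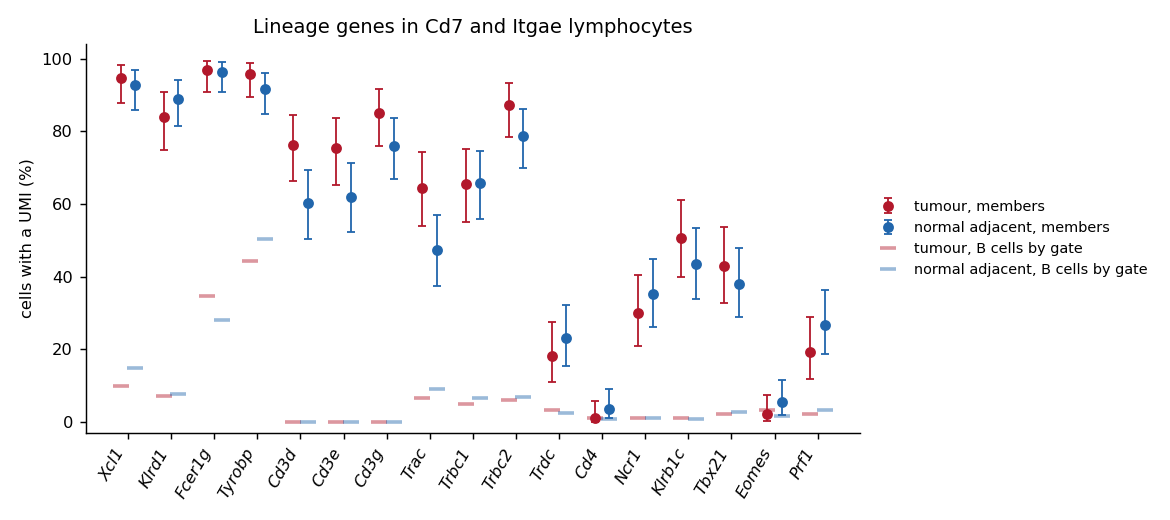
Percent of cells with at least 1 UMI (y axis) of each lineage gene (x axis) in Cd7 Itgae lymphocytes (dots with exact 95% intervals) of the tumour and normal adjacent libraries, and in B cells of each library as background (short lines). Xcl1, Fcer1g and the Cd3 genes sit high, Ncr1 was detected in 30.1% in tumour and 35.2% in normal adjacent tissue, and Eomes in 2.15% in tumour and 5.56% in normal adjacent tissue. The B cell gate required no Cd3 UMI, so its Cd3 values are 0 by definition.

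With every cell thinned to 2000 UMIs, which kept 91 members in tumour and 106 in normal adjacent tissue, 180 B cells in tumour and 234 in normal adjacent tissue, these shares were lower but kept their places against background. Xcl1 was then detected in 90.1% of members and 3.33% of B cells in tumour, and in 86.8% of members and 7.26% of B cells in normal adjacent tissue. Trac was detected in 45.1% of members and 2.78% of B cells in tumour, and in 30.2% of members and 4.27% of B cells in normal adjacent tissue. Ncr1 was detected in 14.3% of members and no B cell in tumour, and in 15.1% of members and 0.427% of B cells in normal adjacent tissue. Cd3g, one of the CD3 chains, was detected in 78.0% of members in tumour and 65.1% in normal adjacent tissue.

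T cell receptor and NK transcripts were found in the same cells. Cd3 and Fcer1g UMIs occurred together in 76 members in tumour (81.7%) and 85 in normal adjacent tissue (78.7%). Cd3 and Klrd1 occurred together in 72.0% of members in tumour and 73.1% in normal adjacent tissue. At least 3 Cd3 UMIs with an Ncr1 UMI were seen in 21 members in each library, which is 22.6% in tumour and 19.4% in normal adjacent tissue. Xcl1 and Klrd1 were both detected in 83.9% of members in tumour and 85.2% in normal adjacent tissue.

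**Figure D2:**
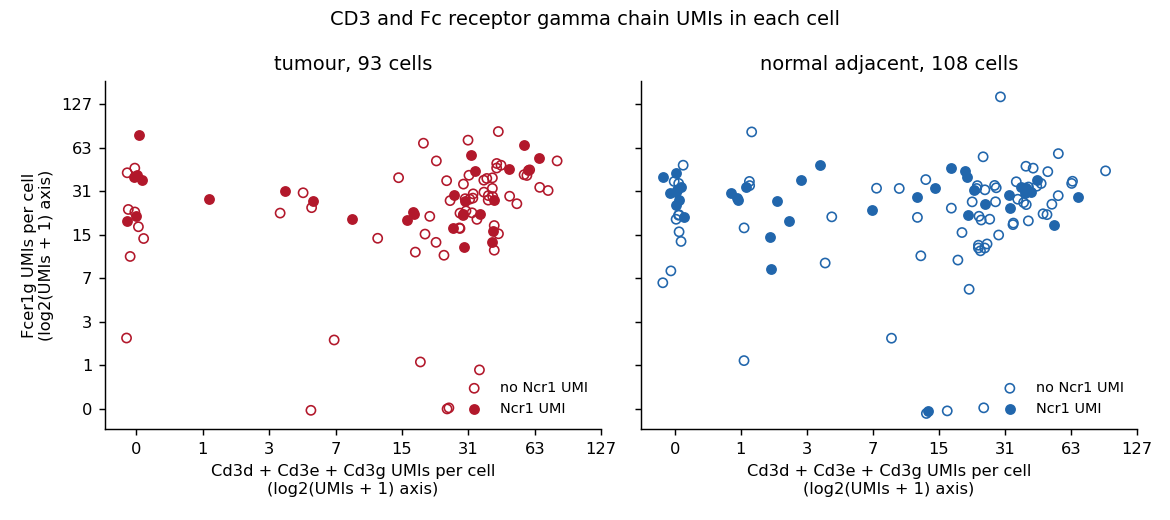
UMIs of Cd3d, Cd3e and Cd3g together (x axis) against UMIs of Fcer1g (y axis) in each Cd7 Itgae lymphocyte, on log2(UMIs + 1) axes with a small random offset per point, for the tumour library (left) and the normal adjacent library (right), with filled points for cells with an Ncr1 UMI. Most cells are high on both axes, and 14 cells in tumour and 19 in normal adjacent tissue have no Cd3 UMI, each with an Fcer1g UMI.

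The Cd3-bearing cells divided further by receptor chain. With at least 3 Cd3 UMIs, under 2 Trdc UMIs and at least 1 Trac UMI, 49 members in tumour (52.7%, 42.1 to 63.1%) and 38 in normal adjacent tissue (35.2%, 26.2 to 45.0%) formed the Trac class. With at least 3 Cd3 UMIs and at least 2 Trdc UMIs, 16 members in tumour (17.2%, 10.2 to 26.4%) and 21 in normal adjacent tissue (19.4%, 12.5 to 28.2%) formed the Trdc class. Another 12 members in tumour and 17 in normal adjacent tissue had Cd3 and a Trbc UMI but no Trac UMI. Trac and Trdc overlapped, since 9 members in tumour and 7 in normal adjacent tissue had at least 2 Trdc UMIs and a Trac UMI. Segment genes were sparse in this 3' assay. The gamma segment Trgv2 was seen in 17 members in tumour and 18 in normal adjacent tissue, and the delta segment Trdv4 in 8 in tumour and 13 in normal adjacent tissue, while no alpha segment was seen in more than 2 members of a library.

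Cells without a Cd3 UMI were as deep as the rest, with a median of 7369.5 UMIs in tumour and 7084 in normal adjacent tissue, against 7489.5 in tumour and 6971.5 in normal adjacent tissue in those with at least 3. They kept the shared markers. In tumour, Xcl1 was at 3374 CPM in the cells without Cd3 and 3085 CPM in those with at least 3 Cd3 UMIs, and in normal adjacent tissue at 2434 CPM without and 2414 CPM with Cd3. In the cells without Cd3, 1 cell held 196 of the 431 Xcl1 UMIs in tumour, and 1 cell held 135 of 397 in normal adjacent tissue. Fcer1g was at 3265 CPM without and 3024 CPM with Cd3 in tumour, and at 3090 CPM without and 2808 CPM with Cd3 in normal adjacent tissue. Itga1 was detected in 57.1% of the cells without and 65.4% of those with Cd3 in tumour, and in 73.7% of either in normal adjacent tissue.

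Some other genes, which the split did not use, followed it in both libraries. Ncr1 was at 125 CPM (71.6 to 203) in the cells without Cd3 and 51.5 CPM (36.5 to 70.7) in those with at least 3 Cd3 UMIs in tumour, and at 129 CPM (79.7 to 197) without and 47.8 CPM (33.5 to 66.2) with Cd3 in normal adjacent tissue. Tyrobp was at 2928 CPM without and 1573 CPM with Cd3 in tumour, and at 2415 CPM without and 1704 CPM with Cd3 in normal adjacent tissue. In the other direction, the Ly49 receptor gene Klra1 was detected in 0 of 14 cells without Cd3 in tumour, which allows a share of up to 21.4% at 3 counts (exact interval 0 to 23.2%), and in 2 of 19 in normal adjacent tissue. In the cells with at least 3 Cd3 UMIs Klra1 was detected in 60.3% in tumour (48.5 to 71.2%) and 50.0% in normal adjacent tissue (38.3 to 61.7%). Ikzf2, which encodes the transcription factor Helios, was at 133 CPM without and 708 CPM with Cd3 in tumour, and at 92.0 CPM without and 356 CPM with Cd3 in normal adjacent tissue. Cxcr6 was detected in 35.7% of the cells without and 83.3% of those with Cd3 in tumour, and in 47.4% without and 81.6% with Cd3 in normal adjacent tissue. Gzmb was at 1112 CPM without and 2277 CPM with Cd3 in tumour, and at 754 CPM without and 1545 CPM with Cd3 in normal adjacent tissue. With 14 cells without Cd3 in tumour and 19 in normal adjacent tissue, the intervals are wide and no test was made between the classes.

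**Figure D3:**
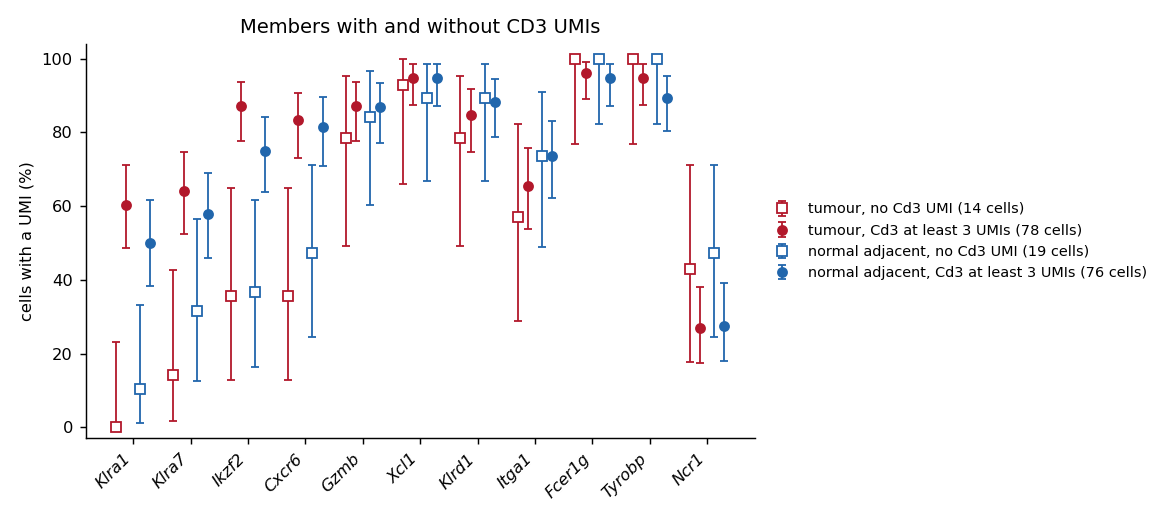
Percent of cells with a UMI (y axis) of 11 genes (x axis) in Cd7 Itgae lymphocytes without a Cd3 UMI (open squares) and with at least 3 (filled circles), in tumour (red) and normal adjacent tissue (blue), with exact 95% intervals. In the cells without Cd3, Klra1 was seen in 0 of 14 in tumour and 2 of 19 in normal adjacent tissue, against 60.3% in tumour and 50.0% in normal adjacent tissue of the cells with Cd3, while Xcl1 and Klrd1 lie close together.

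Some genes had unlike shares in the Trdc class and the Trac class, and those given here were chosen after their values were seen. Il17a, a cytokine gene, was detected in 7 of 16 cells of the Trdc class in tumour (43.8%, 19.8 to 70.1%) and 7 of 21 in normal adjacent tissue (33.3%, 14.6 to 57.0%). In the Trac class it was detected in 4.08% in tumour (0.498 to 14.0%) and 10.5% in normal adjacent tissue (2.94 to 24.8%). Il7r, the receptor gene for the survival cytokine IL-7, was detected in 62.5% of the Trdc class and 6.12% of the Trac class in tumour, and in 42.9% of the Trdc class and 7.89% of the Trac class in normal adjacent tissue. Rora, a transcription factor gene of type 2 and type 3 lymphocytes, was detected in 62.5% of the Trdc class and 26.5% of the Trac class in tumour, and in 57.1% of the Trdc class and 31.6% of the Trac class in normal adjacent tissue. Icos, a costimulatory receptor gene, had 62.5% in the Trdc class and 6.12% in the Trac class in tumour, and 42.9% in the Trdc class and 18.4% in the Trac class in normal adjacent tissue. Gzma was detected in 0 of 16 cells of the Trdc class in tumour, which allows up to 18.8% at 3 counts, and in 14.3% of the Trac class. In normal adjacent tissue Gzma was detected in 28.6% of the Trdc class and 50.0% of the Trac class. Xcl1 was frequent in either class, at 75.0% of the Trdc class and 100% of the Trac class in tumour, and at 85.7% of the Trdc class and 97.4% of the Trac class in normal adjacent tissue. The Trdc class was deeper in tumour, with a median of 10838 UMIs against 7639 in the Trac class, and close in normal adjacent tissue, with 6673 UMIs against 6762.5 in the Trac class.

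Members were uneven in a few other genes. Over 1213 genes in cells thinned to 2000 UMIs (91 members in tumour and 106 in normal adjacent tissue), the median ratio of variance to mean was 1.11 in tumour and 1.13 in normal adjacent tissue. Gzma had a ratio of 35.1 in tumour and 41.3 in normal adjacent tissue, and at full depth a median of 0 UMIs per cell in each, with highest values of 181 in tumour and 276 in normal adjacent tissue. The chemokine genes followed, Ccl4 with ratios of 17.8 in tumour and 30.3 in normal adjacent tissue and Ccl5 with 13.1 in tumour and 18.3 in normal adjacent tissue. Cd74, the invariant chain gene of antigen-presenting cells and a marker on the dendritic cell list, had ratios of 19.5 in tumour and 39.0 in normal adjacent tissue. Xcl1 and Gzmb were less uneven than Gzma but still well above the median ratio. Xcl1 was at 5.51 in tumour and 5.87 in normal adjacent tissue, and Gzmb at 6.07 in tumour and 4.75 in normal adjacent tissue.

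Against all other T, NK and innate lymphocytes joined, members had more RNA of NK receptor genes and less of conventional T cell, type 2 and type 3 genes in both libraries. The NK receptor list went both ways against killers alone and against NK cells alone, as given below. Of the receptor complex, type 2 and type 3, and inhibitory and costimulatory lists, more genes were higher than lower against NK cells alone. A gene was called when its CPM differed by over 1.5-fold the same way in both libraries, with at least 20 UMIs in each. This is a rule of size, not a test. Of 11617 genes, 374 were higher in members (3.22%) and 878 were lower (7.56%), and genes the rule used were left out. The median log2 ratio over all genes was -0.01 in tumour and -0.05 in normal adjacent tissue. Members were deeper than most of the other lymphocytes, whose gates had medians of 4154 to 9855 UMIs in tumour and 4870.5 to 11204 in normal adjacent tissue, and CPM takes out depth only on average.

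The NK receptor list had 13 of 27 genes higher and 1 lower, with median log2 ratios of 0.65 in tumour and 0.86 in normal adjacent tissue. The Ly49 genes led it. Klra1 stood at 338 CPM in members and 51.7 CPM in the others in tumour (6.55-fold, 5.71 to 7.5), and at 220 CPM in members and 38.9 CPM in the others in normal adjacent tissue (5.65-fold, 4.83 to 6.59). Klra7 stood at 569 CPM in members and 100 CPM in the others in tumour (5.68-fold), and at 405 CPM in members and 103 CPM in the others in normal adjacent tissue (3.94-fold). Klra5 and Klra9 of the list, and Klra6, which is not on it, were also higher, by 2.78- to 5.44-fold. Ly49 genes are near-identical copies in a cluster, so how reads were divided among them is uncertain. Fcer1g stood at 3065 CPM in members and 1473 CPM in the others in tumour (2.08-fold, 1.999 to 2.17), and at 2929 CPM in members and 1551 CPM in the others in normal adjacent tissue (1.89-fold, 1.82 to 1.96). The largest gate of the others was held to under 0.5% of UMIs from Lyz2 and Cst3, and members were not. The part of this limit in the higher Fcer1g, Tyrobp and Fcgr3 was not tested. Cd160, which encodes a receptor of cytotoxic intraepithelial lymphocytes, was 2.88-fold higher in tumour (2.28 to 3.60) and 2.49-fold higher in normal adjacent tissue (2.01 to 3.07). Klrg1, a receptor gene of effector and type 2 cells, was the gene on the list that was lower, with an interval that took in 1 in tumour (1.78-fold lower, 0.801 to 4.90).

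Xcl1 stood at 3121 CPM in members and 1265 CPM in the others in tumour (2.47-fold, 2.37 to 2.57), and at 2417 CPM in members and 1197 CPM in the others in normal adjacent tissue (2.02-fold, 1.94 to 2.11). The killer lymphocytes among those others were above members, and Xcl1 stood at 3371 CPM in killers in tumour and 2974 CPM in killers in normal adjacent tissue. Ccl5, another chemokine gene, stood at 9042 CPM in members and 3940 CPM in the others in tumour (2.29-fold), and at 10401 CPM in members and 4782 CPM in the others in normal adjacent tissue (2.17-fold). These were 2 of the 3 genes called higher among 25 secreted cytokines and chemokines, with Ccl4, while 10 were lower. Il17a stood at 131 CPM in members and 739 CPM in the others in tumour (5.65-fold lower, 4.70 to 6.86), and at 98.5 CPM in members and 568 CPM in the others in normal adjacent tissue (5.77-fold lower, 4.74 to 7.10). Ifng was 1.70-fold lower in tumour (1.28 to 2.30) and 1.85-fold lower in normal adjacent tissue (1.46 to 2.38). Beyond the lists, Cd200r2, Slc16a10, Osgin1 and Chn2 were named by the rule among the higher genes, by 2.002- to 5.70-fold.

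Of 14 genes of tissue residency, 5 were higher (Itga1, Cd244a, Cdh1, Litaf and Dusp6) and 2 lower (Cd69 and Ccr9). Itga1 was 2.48-fold higher in tumour (2.03 to 3.001) and 2.99-fold higher in normal adjacent tissue (2.49 to 3.56). Cdh1, which encodes E-cadherin, the partner of CD103, was 1.77-fold higher in tumour (1.32 to 2.33) and 1.79-fold higher in normal adjacent tissue (1.38 to 2.29). Members were not held to the limit of 2 UMIs of Epcam, Krt8, Krt18 and Col1a1 together that the largest gate of the others had. In tumour, epithelial markers had a UMI in 61.3% of members, 23.9% of that gate and 66.2% of killers. In normal adjacent tissue the shares were 58.3% of members, 25.8% of that gate and 68.0% of killers. The part of epithelial RNA from outside the cells in Cdh1 was not tested. Of 12 genes of egress and circulation, none was higher and 5 were lower, with median log2 ratios of -0.80 in tumour and -0.55 in normal adjacent tissue. S1pr1, which encodes the receptor that lets lymphocytes leave tissue, stood at 11.5 CPM in members and 37.3 CPM in the others in tumour (3.25-fold lower, 1.75 to 6.82). In normal adjacent tissue S1pr1 stood at 7.88 CPM in members and 32.3 CPM in the others (4.10-fold lower, 2.07 to 9.54).

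Of 20 genes of the T cell receptor complex and its signalling, none was higher and 9 were lower, namely Cd247, Trdc, Cd4, Cd5, Cd6, Cd28, Lat, Themis and Thy1. Part of the other lymphocytes were gated on Trdc, so its difference follows in part from the gates. Cd28, the main costimulatory receptor gene of naive T cells, stood at 9.18 CPM in members and 149 CPM in the others in tumour (16.2-fold lower, 8.21 to 37.6), and at 19.7 CPM in members and 171 CPM in the others in normal adjacent tissue (8.66-fold lower, 5.60 to 14.2). Cd5, whose product tunes receptor signals, was 12.5-fold lower in tumour (4.27 to 60.9) and 6.69-fold lower in normal adjacent tissue (3.38 to 15.5). Themis, which is needed for conventional T cell development in the thymus, had no UMI in members of either library. The others had 24.3 CPM in tumour and 28.0 CPM in normal adjacent tissue, so Themis was at least 7.07-fold lower in tumour and at least 9.47-fold lower in normal adjacent tissue, taking 3 counts per library as the floor. Cd3g itself was 1.69-fold higher in tumour (1.60 to 1.78) and 1.31-fold higher in normal adjacent tissue (1.23 to 1.38), which in normal adjacent tissue was under the 1.5-fold rule.

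Genes of type 2 and type 3 cells were lower than in the other lymphocytes joined, which include cells gated on Trdc. Of 17 such genes, 13 were lower and none higher, with median log2 ratios of -1.17 in tumour and -1.46 in normal adjacent tissue. Of 25 fate transcription factors, 8 were lower, among them Rora at 2.91-fold in tumour (2.46 to 3.47) and 3.08-fold in normal adjacent tissue (2.63 to 3.63), and Hic1 was the 1 that was higher. Of 12 naive and memory genes, 7 were lower and none higher. Of 14 chemokine receptor genes, 8 were lower and 1, Gpr55, was higher. Of 20 inhibitory and costimulatory receptor genes, 3 were higher and 7 lower, among the lower ones Pdcd1, Ctla4 and Icos. Icos was 3.63-fold lower in tumour (2.93 to 4.56) and 3.57-fold lower in normal adjacent tissue (2.92 to 4.42). Against NK cells alone, Pdcd1 and Icos were higher in members, as given below. Of 19 cytotoxic effector genes, Gzma, Tnfsf10 and Ctsw were higher and 5 were lower (Gzmk, Gzmd, Gzme, Gzmg and Prf1), with Prf1 at 2.38-fold in tumour (1.58 to 3.77) and 2.05-fold in normal adjacent tissue (1.51 to 2.85). The others included NK cells gated on Eomes and Prf1, and killers gated on Gzmc and Gzmf. Differences in Prf1 and in Eomes, which was among the 8 lower fate factors, thus follow in part from the gates. The part of the killer gate in the lower Gzmd, Gzme and Gzmg was not tested.

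Of 22 cytokine receptor genes 1 was higher and 8 lower, Il7r among the lower ones. The largest gate of the others required at least 3 UMIs of Cd3, receptor constant, Nkg7, Klrd1, Ncr1 and Il7r genes together. The part of that gate in the lower Il7r was not tested. Against killers alone, 2 of 18 cytokine receptor genes were higher in members, Il2ra and Il7r, and 1 was lower. Against NK cells alone, 4 of 15 were higher, Il7r among them, and 5 were lower. Against all other lymphocytes joined, few genes of the remaining lists differed. None was higher and at most 2 were lower among 12 genes of the TGF-beta response, 21 of immediate early and dissociation stress, 20 of interferon induction, 17 of the cell cycle and 17 of glycolysis and hypoxia. With cells with at least 1% foreign UMIs removed, 5 of 21 immediate early, 3 of 20 interferon-induced and 3 of 17 glycolysis genes were lower. None on those lists was then higher. None of 12 genes of MHC class I presentation or 14 of oxidative phosphorylation was called either way. The fibroblast genes Dcn, Col3a1, Serping1, Sparc and Apod and the epithelial gene Wfdc2 were named by the rule among the lower genes. These values moved when cells with at least 1% foreign UMIs were removed from members and the others. Dcn then had log2 ratios of -0.06 in tumour and -1.97 in normal adjacent tissue, against -3.06 in tumour and -3.79 in normal adjacent tissue with all cells. Sparc then had 0.08 in tumour and -2.78 in normal adjacent tissue, and Serping1 0.27 in tumour and -3.47 in normal adjacent tissue, so none of these was past the fold in tumour. Wfdc2 then had -1.83 in tumour and -0.48 in normal adjacent tissue, and was not past the fold in normal adjacent tissue.

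The gates nearest to the members differed from them in distinct ways. Against the Gzmc and Gzmf killer lymphocytes (275 cells in tumour and 291 in normal adjacent tissue), which had at least 10 UMIs of those granzymes, 269 of 8759 genes were higher (3.07%) and 244 lower (2.79%). Fcer1g was close, at 3065 CPM in members and 3371 CPM in killers in tumour, and at 2929 CPM in members and 3303 CPM in killers in normal adjacent tissue. Cxcr6 stood at 365 CPM in members and 324 CPM in killers in tumour, and at 376 CPM in members and 363 CPM in killers in normal adjacent tissue. Members had more of Cd3d, Cd3e, Cd3g, Trdc and Lat, 5 of 17 receptor genes with none lower. Of 13 residency genes, Cd101 and Dusp6 were higher in members than in killers and none was lower, with median log2 ratios of 0.13 in tumour and 0.29 in normal adjacent tissue. Itga1, Cd244a, Cdh1 and Litaf were thus not called against killers. Of 12 egress genes, S1pr1 and Itga4 were higher in members than in killers and none was lower, with median log2 ratios of 0.45 in tumour and 0.53 in normal adjacent tissue. Of 25 NK receptor genes, 5 were higher in members than in killers and 2 were lower, with median log2 ratios of -0.22 in tumour and 0.16 in normal adjacent tissue. Klra1 was 2.87-fold higher in members than in killers in tumour (2.46 to 3.35) and 2.90-fold in normal adjacent tissue (2.43 to 3.45). Ncr1 was 2.28-fold lower in tumour (1.72 to 3.06) and 1.69-fold lower in normal adjacent tissue (1.32 to 2.19). Prf1 was 3.90-fold lower in tumour (2.56 to 6.24) and 2.37-fold lower in normal adjacent tissue (1.72 to 3.34).

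Against NK cells, gated on Eomes and Prf1 without Cd3 (86 cells in tumour and 92 in normal adjacent tissue), 387 of 5983 genes were higher (6.47%) and 445 lower (7.44%). Members had more of 6 of 12 residency genes, and none was lower. Itga1 stood at 138 CPM in members and 16.04 CPM in NK cells in tumour (8.58-fold, 4.04 to 21.8), and at 147 CPM in members and 18.5 CPM in NK cells in normal adjacent tissue (7.92-fold, 4.30 to 16.2). Cxcr6 stood at 365 CPM in members and had no UMI in NK cells in tumour, and stood at 376 CPM in members and 13.5 CPM in NK cells in normal adjacent tissue. Of 8 type 2 and type 3 genes, 5 were higher in members than in NK cells (Areg, Il17a, Tmem176a, Tmem176b and Calca) and 1 was lower. Of 26 NK receptor genes, 4 were higher in members and 10 were lower, with median log2 ratios of -0.62 in tumour and -0.02 in normal adjacent tissue. Of 16 receptor complex genes, 10 were higher and 4 lower in members, against a gate without Cd3 UMIs. Of 15 inhibitory and costimulatory receptor genes, 7 were higher, Pdcd1 and Icos among them, and 1, Cd28, was lower. Of 11 egress genes, 9 were lower and none higher. Klf2, the transcription factor gene that drives S1pr1, was 8.99-fold lower in tumour (7.14 to 11.4) and 5.42-fold lower in normal adjacent tissue (4.50 to 6.54). Ly49 genes went both ways, since Klra1 was 14.8-fold higher in members in tumour (7.92 to 31.1) and 6.86-fold in normal adjacent tissue (4.29 to 11.6), whereas Klra8 was 21.1-fold lower in tumour (14.3 to 32.3) and 5.07-fold lower in normal adjacent tissue (3.93 to 6.60). The median depth of the NK cells was 4154 UMIs in tumour and 4870.5 in normal adjacent tissue, below that of members.

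Against CD8 T cells with Itgae (170 cells in tumour and 141 in normal adjacent tissue), 263 of 8156 genes were higher (3.22%) and 444 lower (5.44%). NK receptor genes were higher in 18 of 23 cases and lower in none, with median log2 ratios of 1.23 in tumour and 1.52 in normal adjacent tissue. Ncr1 was 6.09-fold higher in members in tumour (3.74 to 10.2) and 14.98-fold in normal adjacent tissue (7.70 to 32.5). Klrb1c was 5.77-fold higher in tumour (3.92 to 8.63) and 5.31-fold in normal adjacent tissue (3.42 to 8.45). Cd6, Cd28, Cd5, Lat and Themis were lower, 5 of 19 receptor genes, while Cd3 was part of the gate. Of 7 type 2 and type 3 genes 1, Calca, was higher and none lower. Cd6 was 6.74-fold lower in tumour (3.58 to 14.3) and 5.55-fold lower in normal adjacent tissue (3.51 to 9.27). Of 16 cell cycle genes, 14 were lower and none higher, among them the proliferation marker gene Mki67 at 2.36-fold in tumour (1.74 to 3.26) and 3.57-fold in normal adjacent tissue (2.40 to 5.50).

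**Figure D4:**
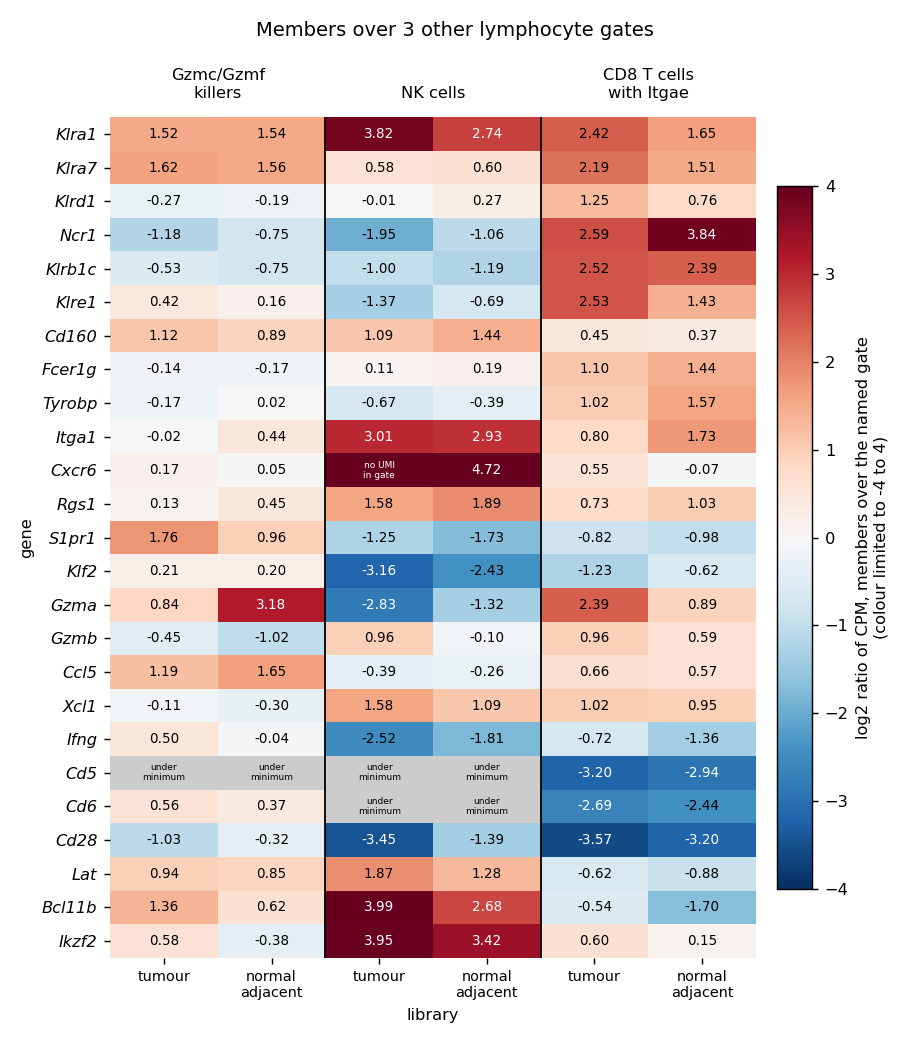
Log2 ratio of summed CPM, Cd7 Itgae lymphocytes over each of 3 lymphocyte gates (columns, with tumour left of normal adjacent tissue), for 25 genes (rows), red where higher in the Cd7 Itgae lymphocytes and blue where lower, and grey where a gene had too few UMIs. Against NK cells Klra1 is at 3.82 in tumour and 2.74 in normal adjacent tissue and Klf2 at -3.16 in tumour and -2.43 in normal adjacent tissue, whereas Ncr1 is negative against killers and NK cells and positive against CD8 T cells with Itgae.

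In either tissue most members had Cd3, Fcer1g, Xcl1 and Klrd1 UMIs, and the largest ratios between tissues lay in genes carried by few cells. The receptor make-up was not the same. At least 3 Cd3 UMIs were present in 83.9% of members in tumour and 70.4% in normal adjacent tissue. The Trac class made up 52.7% in tumour and 35.2% in normal adjacent tissue. Of 7121 genes with at least 20 UMIs over the libraries together, 769 were past 1.5-fold higher in tumour (10.8%) and 656 lower (9.21%), with a median log2 ratio of 0.05. Of the 24 genes that the ranking by interval named, most rested on 1 cell. The seminal vesicle secretion gene Svs5 had 41 UMIs in members of tumour and 29646 in those of normal adjacent tissue, and 99.7% of those in normal adjacent tissue lay in 1 cell. That cell had 64900 UMIs, of which 61.5% were of seminal vesicle genes. Svs4, Svs6, Spinkl, Pate4, Pate14, Cdo1, Ceacam10, H2-M2, Wfdc15b and Lyz1 had 96.5% to 100% of their normal adjacent UMIs in 1 cell each. Igfbp5 and Krt14, of stromal and basal epithelial cells, had 99.1% and 100% of their tumour UMIs in 1 cell each.

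Among genes spread over many cells, Tnfrsf9, Ikzf2 and Ms4a4b were about 2-fold higher in tumour. The genes here are those whose most loaded cell held under 20% of their UMIs in each library, a ranking chosen after the values were seen. Tnfrsf9, which encodes the activation receptor 4-1BB, stood at 580 CPM in tumour and 273 CPM in normal adjacent tissue (2.13-fold, 1.83 to 2.47), with a UMI in 75 of 93 members in tumour (80.6%) and 65 of 108 in normal adjacent tissue (60.2%). In cells thinned to 2000 UMIs the shares with a Tnfrsf9 UMI were 58.2% in tumour and 34.0% in normal adjacent tissue. Ikzf2 stood at 618 CPM in tumour and 297 CPM in normal adjacent tissue (2.08-fold, 1.80 to 2.40). Ms4a4b stood at 296 CPM in tumour and 128 CPM in normal adjacent tissue (2.31-fold, 1.87 to 2.88). Gzmb stood at 2095 CPM in tumour and 1350 CPM in normal adjacent tissue (1.55-fold, 1.45 to 1.67), though it was detected in nearly equal shares of members. Without the cells that had at least 1% foreign UMIs, the ratios were 1.63 for Tnfrsf9 (1.39 to 1.91), 1.64 for Ikzf2 (1.42 to 1.91), 1.88 for Ms4a4b (1.51 to 2.35) and 1.32 for Gzmb (1.23 to 1.42). Gzmb was then no longer past 1.5-fold. In the killers Tnfrsf9 stood at 801 CPM in tumour and 855 CPM in normal adjacent tissue, and in CD8 T cells with Itgae at 296 CPM in tumour and 364 CPM in normal adjacent tissue. Whether the ratio differed between the gates was not tested.

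Receptor complex genes went both ways between the tissues. Of 17 receptor complex genes tested, Cd3d, Trac, Trbc1 and Thy1 were higher and Cd6 and Cd28 were lower, and the list's median log2 ratio was 0.25. Cd3d stood at 710 CPM in tumour and 448 CPM in normal adjacent tissue (1.59-fold, 1.40 to 1.79), and Trac at 344 CPM in tumour and 190 CPM in normal adjacent tissue (1.81-fold, 1.51 to 2.18). Without the cells that had at least 1% foreign UMIs the ratios were 1.37 for Cd3d (1.21 to 1.56) and 1.57 for Trac (1.30 to 1.92). For Xcl1 the ratio was 1.29 (1.22 to 1.36) over all members and 1.01 (0.954 to 1.07) without those cells. For Klrd1 it was 1.15 (1.03 to 1.29) over all members and 1.01 (0.893 to 1.14) without them.

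Of 25 NK receptor genes, Klra1 and Klra5 were higher in tumour and 7 were lower (Klrc1, Klrc2, Klri2, Klra3, Klra4, Klra8 and Fcgr3), with a median log2 ratio of -0.07. Without the cells that had at least 1% foreign UMIs none of 25 was higher and 7 were lower, with a median of -0.28. Klrc2, which encodes the activating receptor NKG2C, stood at 73.4 CPM in tumour and 133 CPM in normal adjacent tissue, and was 2.14-fold lower (1.56 to 2.97) without the cells that had at least 1% foreign UMIs. Klra8 was seen in 5 members in tumour and 14 in normal adjacent tissue. None of 13 residency, 15 cytokine receptor, 11 TGF-beta response, 12 MHC class I or 14 oxidative phosphorylation genes was past the fold either way. Without the cells that had at least 1% foreign UMIs, 1 of 13 residency genes was lower and 2 of 13 cytokine receptor genes were higher. Of 14 cytotoxic effectors, Gzmb was higher and Gzma, Prf1 and Ctsd were lower, and without those cells none was higher and 2 were lower. Of 20 interferon-induced genes 6 were higher and 7 lower, and without those cells 5 were higher and 3 lower of 19. Of 15 cytokines and chemokines 4 were higher and 3 lower, and without those cells 6 were higher and 2 lower of 14. Fate transcription factors had 2 higher and 2 lower of 21, egress genes 2 higher and 2 lower of 9, and inhibitory and costimulatory receptors 3 higher and 1 lower of 16. Of 9 chemokine receptor, 7 type 2 and type 3 and 7 naive and memory genes, each list had 1 higher and 1 lower, and of 15 glycolysis genes 1 was higher and none lower. Without those cells 4 glycolysis genes were higher and none lower. Type 2 and type 3 genes then had 3 higher and 1 lower of 7, and chemokine receptors 1 higher and 2 lower of 8. None of 4 naive and memory genes was then called. Fate transcription factors then had 2 higher and 3 lower of 19, with a median log2 ratio of -0.34, against 0.03 with all members.

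Gzma was 2.81-fold lower in tumour (2.595 to 3.04), at 935 CPM in tumour and 2626 CPM in normal adjacent tissue. It was present in 18 of 93 members in tumour (19.4%) and 37 of 108 in normal adjacent tissue (34.3%), and the cell with the most held 22.2% of its UMIs in tumour. The gene was lower in tumour in several other gates too, 7.99-fold in CD8 T cells with Itgae (7.21 to 8.87) and 2.85-fold in B cells (2.13 to 3.85), where it stood at 38.3 CPM in tumour and 109 CPM in normal adjacent tissue and serves as background. In NK cells, where it is highest, it stood at 6649 CPM in tumour and 6575 CPM in normal adjacent tissue, and in the killers at 523 CPM in tumour and 290 CPM in normal adjacent tissue. The part that RNA from outside the cells had in this was not tested.

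Of 20 immediate early and dissociation stress genes, none was higher in tumour and 5 were lower (Fos, Fosb, Egr1, Atf3 and Ppp1r15a). Without the cells that had at least 1% foreign UMIs the count turned round, with 3 higher and 1 lower of 20 and a median log2 ratio of -0.02, against -0.14 with all members. Fos, an early response gene that tissue digestion also induces, stood at 293 CPM in tumour and 616 CPM in normal adjacent tissue (2.11-fold lower, 1.82 to 2.45). Without the cells that had at least 1% foreign UMIs it was 1.03-fold lower (0.849 to 1.26). Ppp1r15a without those cells was 1.94-fold lower (1.56 to 2.43). Cd74 stood at 3291 CPM in tumour and 5930 CPM in normal adjacent tissue, and without those cells was 1.39-fold lower (1.23 to 1.56), below the rule of size. Dendritic cell marker genes together had 5894 CPM in members of tumour and 10843 CPM in those of normal adjacent tissue, macrophage genes 1216 CPM in tumour and 1363 CPM in normal adjacent tissue, and B cell genes 223 CPM in tumour and 131 CPM in normal adjacent tissue. Per cell, the 9 dendritic genes ran from 1 over a median of 5 to 1007 UMIs in tumour and from 1 over a median of 8 to 1893 in normal adjacent tissue.

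Of 13 cell cycle genes, 9 were higher in tumour and none lower, with a median log2 ratio of 0.92, and 0.83 without the cells that had at least 1% foreign UMIs. They rested on few cells. Mki67, a marker of cycling cells, was seen in 8 members in tumour and 7 in normal adjacent tissue. Top2a was seen in 21 members in tumour and 10 in normal adjacent tissue, and 45.7% of its tumour UMIs and 67.9% of its normal adjacent UMIs were in 1 cell.

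**Figure D5:**
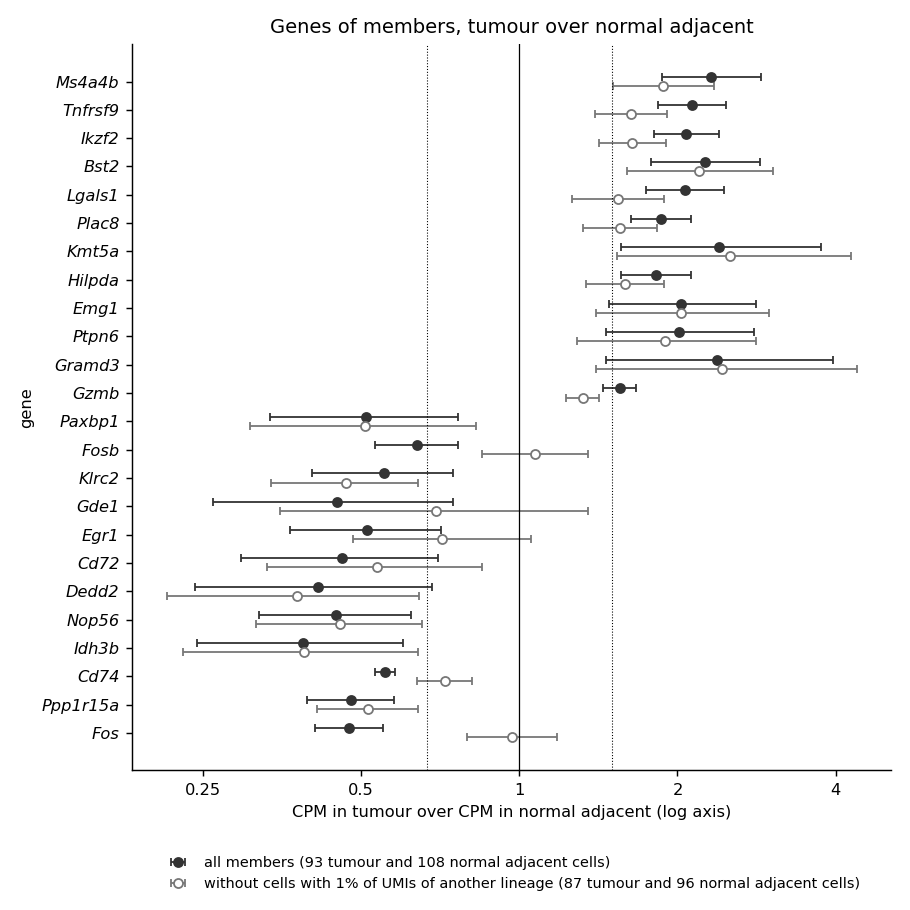
Ratio of summed CPM in tumour over normal adjacent tissue (x axis, log scale) for the spread genes (y axis), in all Cd7 Itgae lymphocytes (filled) and without the cells that had at least 1% of UMIs from another lineage (open), with exact 95% intervals of counting error and dotted lines at 1.5-fold. Tnfrsf9, Ikzf2 and Ms4a4b stay past 1.5-fold in either set, and Fos lies at 0.475 in all members and 0.968 without those cells.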

How the data were processed

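The data were unique molecular identifier (UMI) counts per gene and cell, deposited by the authors as 1 filtered matrix per library with 32285 mouse gene features, and the file headers name Cell Ranger 4.0.0. The submitters' processing notes also name R 4.0.3, Seurat 3.2.2 and the build GRCh38, while the genes are mouse genes. No coordinates were used. No cell annotation was used, so cells were chosen by gates on UMIs among barcodes with at least 200 genes and at most 20% mitochondrial UMIs. The members and gene lists were chosen with earlier results of these data known.

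UMIs were summed over the cells of a gate and library and scaled to UMIs per 1000000 UMIs (CPM) of those cells. Shares have exact Clopper-Pearson intervals, CPM exact Poisson intervals and ratios exact conditional binomial intervals, all at 95% and covering counting error only. With 1 library per tissue no test was made, and a gene was called past 1.5-fold with at least 20 UMIs. Log2 ratios of lists used 0.5 added UMIs, and a count of 0 was bounded with 3 counts. Cells were thinned to 2000 UMIs where said. The scripts were tested on simulated data. Of 319 genes on 19 lists, 316 were measured, and a list count covers those with enough UMIs.

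Named genes were fixed lineage genes, 2 to 6 genes of each list, the 12 each way ranked by interval between tissues (at least 30 UMIs and 50 CPM) and the 15 each way against other lymphocytes. Symbols without a name of their own, ribosomal, mitochondrial, immunoglobulin, receptor segment and sex-linked genes took no place in the ranking. Alternatives changed the filters, gate limits, minimum, fold, scaling and the cells kept. Python 3.11.15, NumPy 2.4.6, SciPy 1.17.1, pandas 2.3.3, statsmodels 0.14.6 and matplotlib 3.10.9 were used.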

Additional observations from a re-analysis of the deposited data

How the results depend on the processing

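The share of Cd7 Itgae lymphocytes differed between tissues by -0.768 to 0.381 percentage points over the alternatives, and every interval included 0. The share with a Cd3 UMI moved by more than its interval only in normal adjacent tissue with at least 2 Itgae UMIs, to 89.9%. Counts of genes past the fold depended on the number of cells and the minimum. Between tissues, 769 were higher and 656 lower, against 251 and 220 when cells with at least 3 UMIs of another lineage were removed, 321 and 382 in members with no Cd3 UMI, 305 and 271 with at least 50 UMIs per gene, 2968 and 3170 with at least 1 UMI, and 224 and 223 at 2-fold. Scaling by the median ratio gave 646 and 752. Keeping only genes whose most loaded cell held under 20% of UMIs, chosen after seeing the data, gave 514 higher and 320 lower of 5803. Against other lymphocytes, 374 were higher and 878 lower, with 758 higher after removal of cells with 3 UMIs of another lineage, and 89 higher and 500 lower at 2-fold. The lower count was 445 against NK cells, 444 against CD8 T cells with Itgae and 244 against killers alone.

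Of 302 alternatives over 59 named genes, 179 stayed within their interval, 110 moved and 13 changed direction. Removing cells with 3 UMIs of another lineage, which left 17 members in tumour and 22 in normal adjacent tissue, gave log2 ratios of -1.72 for Areg, -0.34 for Kmt5a, 0.39 for Fos, 0.39 for Gde1, -0.17 for Xcl1, -0.38 for Klrd1, -0.14 for Cd3e and -0.34 for Trbc1. Members with no Cd3 UMI gave 0.50 for Klrc2 and -1.15 for Trbc2, and thinning gave -0.069 for Ly6a. Of settings chosen after seeing the data, removal of cells with 1% foreign UMIs gave 0.10 for Fosb, and members with at least 3 Cd3 UMIs gave -0.26 for Areg. The cause of these changes was not tested. Of 68 alternatives for list medians between tissues, 66 stayed within a log2 distance of 1.5-fold and 2 went past it, but 22 had the other sign than with all members, so the medians carry no firm direction where they lie near 0. No paired analysis was possible because each tissue has 1 library and the 2 share only 1 number.

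With 1 library per tissue, a difference between tissues cannot be told apart from one between libraries. Intervals cover counting error only, and genes seen in few members rest on those cells. Gates use few UMIs, and a cell without a UMI was not taken to lack the gene.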
